A study of Mus musculus with 38 samples.

Results

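The genes described here encode retinoid carriers and nuclear receptors: the cellular retinoic acid binding proteins Crabp1 and Crabp2, the retinol carrier Rbp4 and its receptor Stra6, the retinoic acid receptors Rara, Rarb and Rarg, and the retinoid X receptors Rxra and Rxrb. They were chosen by name, and every probe set annotated with 1 of these symbols was taken. This gave 9 genes with 12 probe sets, out of 18019 genes placed on the genome and 45101 probe sets on the array. All 9 genes lie on autosomes other than chromosome 1, where every substitution strain below carries B6 alleles.

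Testes of single prepubertal males were measured with 1 array each, 38 arrays in 11 groups. The series asks which transcripts differ in testes where an X chromosome of one mouse subspecies stands in the genome of another, at ages before meiosis begins. B6-ChrXMSM males carry almost the entire X chromosome of MSM, a strain derived from Mus musculus molossinus, in the background of the laboratory strain B6. B6-ChrXTMSM males carry the distal part of that X chromosome, and the congenic strain XS39-tel carries a more distal interval of it. The (B6-ChrXTMSM x B6-Chr1MSM)F1 males, called F1 below, combine the distal MSM X chromosome with 1 MSM copy of chromosome 1. MSM and B6 males are the parental strains. At 7 days postpartum (dpp) there were 3 B6-ChrXMSM, 3 B6-ChrXTMSM, 8 F1, 3 MSM and 3 B6 males. At 5 dpp there were 3 males in each of these groups and 3 XS39-tel males. None of the animals was treated, and the RNA came from the whole testis.

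Retinoic acid, made from retinol inside the testis, is the signal that drives spermatogonia to differentiate and to enter meiosis. Retinol travels in blood bound to RBP4 and can enter cells through STRA6, while CRABP1 and CRABP2 bind retinoic acid in the cytoplasm. Retinoic acid acts through RAR proteins, which sit on DNA as dimers with RXR proteins and switch target genes on when the ligand binds. CRABP1 is known from spermatogonia of the mouse testis, RARA is best known there from Sertoli cells and RARG from spermatogonia, and RBP4 is known as a product of liver and fat.

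The promoters of 3 of the genes are shown, Crabp1 and Rbp4 because they differed between the groups below, and Rarb because its promoter is the textbook site of retinoic acid receptor binding. The sequences are RefSeq windows of 300 bases around an annotated start in GRCm38.p6, most of each lying upstream, read along the gene's strand. The Crabp1 window lies at chr9:54764498-54764797 on the plus strand, the Rbp4 window at chr19:38124762-38125061 and the Rarb window at chr14:16575427-16575726, both on the minus strand. Capitals mark GC boxes (GGGCGG on either strand) in Crabp1, the TATA box motif in Rbp4 (its other motifs stay in lower case) and the direct repeat spaced by 5 bases in Rarb.
Crabp1: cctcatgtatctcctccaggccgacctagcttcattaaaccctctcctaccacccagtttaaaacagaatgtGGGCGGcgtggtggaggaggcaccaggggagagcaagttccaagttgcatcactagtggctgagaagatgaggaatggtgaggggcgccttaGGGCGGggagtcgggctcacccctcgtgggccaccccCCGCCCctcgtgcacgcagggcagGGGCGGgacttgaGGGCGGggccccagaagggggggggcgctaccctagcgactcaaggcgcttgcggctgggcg
Rbp4: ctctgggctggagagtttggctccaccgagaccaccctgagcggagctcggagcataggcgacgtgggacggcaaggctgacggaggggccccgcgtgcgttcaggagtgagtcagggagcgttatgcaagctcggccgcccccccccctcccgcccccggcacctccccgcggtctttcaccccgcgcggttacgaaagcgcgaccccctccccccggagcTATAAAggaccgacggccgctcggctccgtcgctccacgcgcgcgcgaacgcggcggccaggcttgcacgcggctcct
Rarb: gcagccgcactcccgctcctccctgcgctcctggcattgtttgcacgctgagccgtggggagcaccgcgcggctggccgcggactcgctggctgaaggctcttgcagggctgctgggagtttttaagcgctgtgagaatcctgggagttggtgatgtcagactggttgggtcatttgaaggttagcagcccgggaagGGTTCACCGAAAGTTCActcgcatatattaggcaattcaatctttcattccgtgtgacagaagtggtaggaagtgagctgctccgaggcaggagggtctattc
Windows were found for 8 of the 9 genes, 18 in all, and Crabp2 had none. The direct repeat is made of 2 receptor half-sites with 5 bases between them. A half-site was AGGTCA or AGTTCA or GGGTCA or GGTTCA. The repeat was searched on both strands and was in 0.0974% of 32851 promoter windows. Among the windows of these genes only that of Rarb held it, beginning 53 bases before the start. The Crabp1 window held 5 GC boxes, a motif in 35.7% of all windows, and no TATA box motif. The Rbp4 window shown held TATAAA beginning 28 bases before the start, a motif in 13.6% of all windows, and a second Rbp4 window further upstream held none. Neither the Crabp1 nor an Rbp4 window held a direct repeat spaced by 1, 2 or 5 bases. These are matches of letters and say nothing of binding.

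Values are log2 signals, and a probe set was tested where the mean of at least 1 of the groups compared exceeded 3.32, the log2 of 10. Calls required an adjusted p under 0.05 and at least a 1.5-fold change. Rxrb, with group means from 6.07 to 6.48, Rxra, Rarg and Rbp4 exceeded the filter in all 11 groups. Signals of different probe sets are not levels of different genes on 1 scale, so no gene is set against another. Crabp1 exceeded the filter in 6 groups, Stra6 in 7 and Rara in 1. Crabp2, with group means from 1.20 to 2.00, and Rarb, with 0.99 to 1.81, stayed below it in all 11 groups and entered no test. The second Rarg probe set and 1 of the 3 Rxra probe sets also stayed below it everywhere. The remaining Rxra probe set exceeded it in XS39-tel and MSM males of 5 dpp, and was therefore tested beside the brightest in 3 comparisons. It was called in none of them.

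The arrays held markers of testis. All 14 matched genes of a germ cell list and all 19 matched genes of a Sertoli cell list exceeded the filter, while none of 6 liver and 6 epididymis genes did. Array medians ran from 2.63 to 2.71 on the log2 scale. Precision is limited by how many arrays each group has, and no batch is given in the sources used here. The germ cell list moved with the strains at 7 dpp, with a mean log2 signal of 4.58 to 4.99 in B6-ChrXMSM males, 4.59 to 5.36 in B6-ChrXTMSM males and 6.08 to 6.23 in B6 males. The Sertoli cell list was at 7.53 to 7.56, 7.45 to 7.55 and 7.204 to 7.293 in the same groups. In RNA of whole testes, fewer cells of a type and less RNA per cell cannot be told apart.

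Crabp1 showed the widest span of the 9 genes over the groups, with group means 4.91 apart on the log2 scale, and Rbp4 the next widest with 2.26. The span was 0.93 or less for each of the other 7. B6-ChrXMSM males of 5 dpp had the lowest mean of both genes. MSM males of 7 dpp had the highest mean of Crabp1 and B6 males of 7 dpp that of Rbp4. Ordered by their means, 7 of the 10 neighbouring pairs of groups overlapped in Crabp1, with gaps above B6 males of 5 dpp, above MSM males of 5 dpp and above B6 males of 7 dpp. In Rbp4 every neighbouring pair overlapped.

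**Figure D1:**
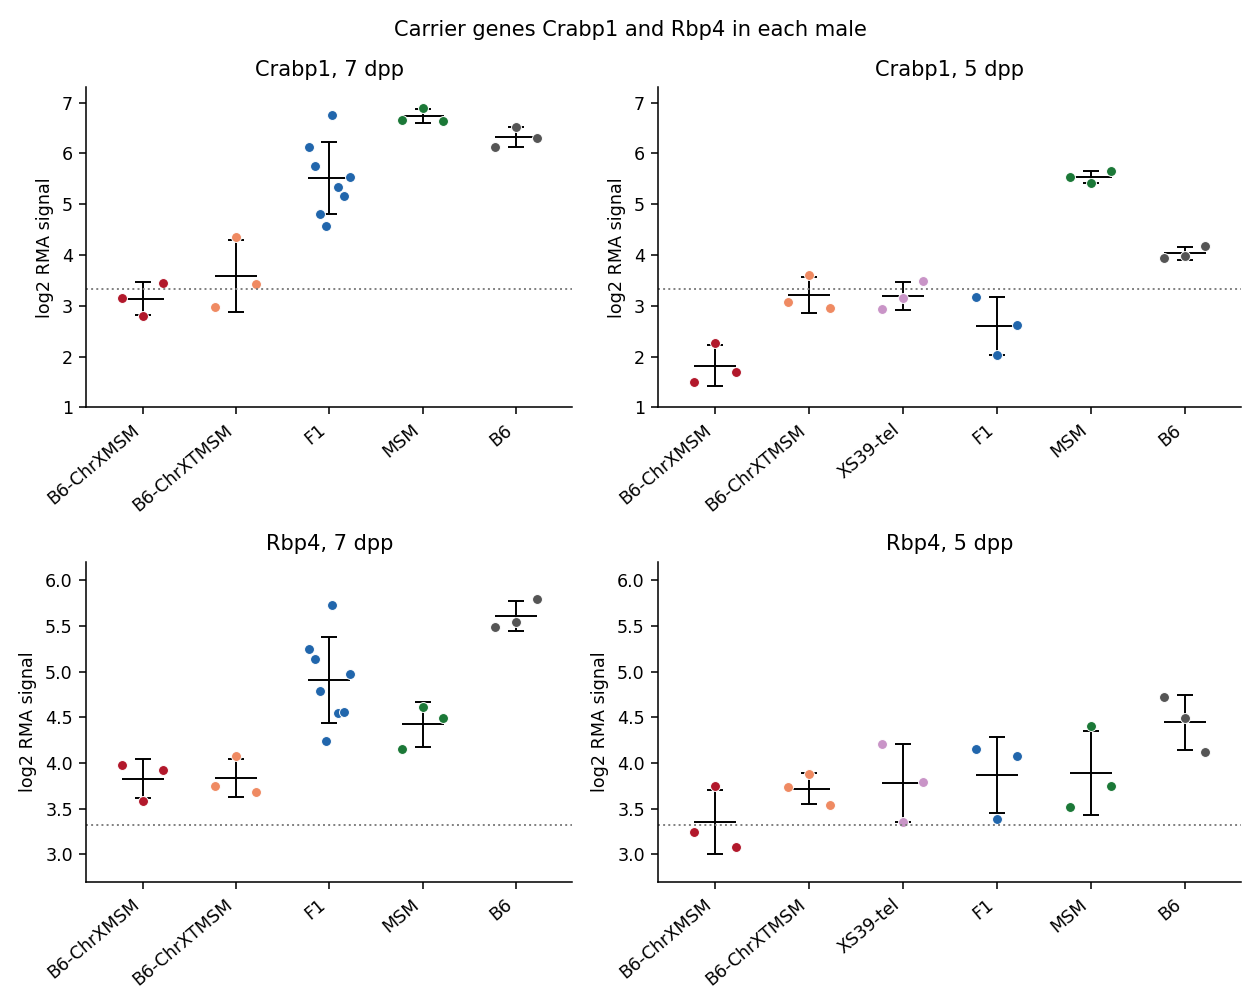
Log2 RMA signal of Crabp1 (top) and Rbp4 (bottom) at 7 dpp (left) and 5 dpp (right), with a point for each male, the group mean as a long bar and the SD as whiskers; the dotted line is the filter at 3.32. At 7 dpp all B6-ChrXMSM and B6-ChrXTMSM males lie below all B6 males in both genes, and the 8 F1 males spread from 4.56 to 6.75 in Crabp1.

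Both carriers were lower in the X substitution strains than in B6 at 7 dpp. Crabp1 had log2 signals of 3.16, 2.81 and 3.45 in B6-ChrXMSM males, against 6.12, 6.52 and 6.30 in B6 males. The groups lay far apart, and the B6-ChrXMSM mean of 3.14 ± 0.32 fell below the filter, against 6.31 ± 0.20 in B6 (SD, n = 3 each), so a weak signal sets how large the difference is. The log2 fold change was -3.18 (SE 0.16, adjusted p = 1.17e-05 by limma), and only 2 of 17095 probe sets had a lower one. Rbp4 had log2 signals of 3.98, 3.58 and 3.93 in B6-ChrXMSM males and 5.49, 5.55 and 5.80 in B6 males. These groups did not overlap either, and the log2 fold change was -1.78 (SE 0.12, adjusted p = 3.26e-05 by limma). The adipose tissue list, given because Rbp4 is also a product of fat, lay at 3.91 to 5.45 in B6-ChrXMSM and 3.98 to 5.08 in B6-ChrXTMSM males, above the 3.68 to 3.89 of B6 males. Among the 6 member probe sets tested Crabp1 and Rbp4 were the 2 called, both lower, where 6.09% of all probe sets were called.

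The distal part of the MSM X chromosome gave changes of like size at this age. In B6-ChrXTMSM males Crabp1 had log2 signals of 2.98, 4.36 and 3.42, all below the 6.12 to 6.52 of B6 males. Male 2 was the highest of them, and it also had the highest germ cell list signal of its group, at 5.36. The log2 fold change of Crabp1 was -2.73 (SE 0.30, adjusted p = 0.000593 by limma), again with only 2 lower of 17102 probe sets. Rbp4 had 3.75, 4.08 and 3.68 in B6-ChrXTMSM males, against 5.49 to 5.80 in B6 males, with a log2 fold change of -1.78 (SE 0.12, adjusted p = 0.000145 by limma). Both of these genes and no other member were called among 6 tested, where 5.73% of all probe sets were called. The B6 males are the same in both comparisons. Set directly against each other, B6-ChrXTMSM and B6-ChrXMSM males of 7 dpp differed by 0.45 (SE 0.32) in Crabp1 and by 0.01 (SE 0.13) in Rbp4 on the log2 scale. Neither passed the test in limma, and no member was called, against 0.309% of all probe sets. An unadjusted p under 0.05 was found for 2 of 6 members and 12.1% of all probe sets.

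No receptor was called in these strains. In B6-ChrXMSM males of 7 dpp, Rarg had log2 signals of 3.49, 3.63 and 3.42, against 3.70, 3.89 and 3.87 in B6 males. The groups did not overlap, at -0.30 on the log2 scale (adjusted p = 0.0166 by limma). Rxra had a log2 fold change of -0.22 (adjusted p = 0.0213) and the retinol receptor Stra6 -0.23 (adjusted p = 0.0459). These 3 passed the adjusted p in the B6-ChrXMSM comparison but fell short of the 1.5-fold change. Small p-values were common there, since 49.5% of all probe sets, and 5 of the 6 members, had an unadjusted p under 0.05 by limma. The share of all probe sets passing the adjusted p alone is not given here. Counted from the lowest log2 fold change of 17095 probe sets, Rarg ranked 2327, Stra6 3306 and Rxra 3460. Rxrb differed by 0.05 with an adjusted p of 0.553. In B6-ChrXTMSM males the log2 fold changes against B6 were -0.24 for Rarg, -0.10 for Stra6, -0.05 for Rxra and -0.10 for Rxrb, with adjusted p from 0.0723 to 0.511. The median log2 fold change over the 6 members tested was -0.27 in B6-ChrXMSM and -0.17 in B6-ChrXTMSM males, beside 0.01 and 0.02 over all probe sets. Rara stayed below the filter in every group of this age, with means of 3.04 in B6-ChrXMSM, 3.24 in B6-ChrXTMSM and 2.85 in B6 males.

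**Figure D2:**
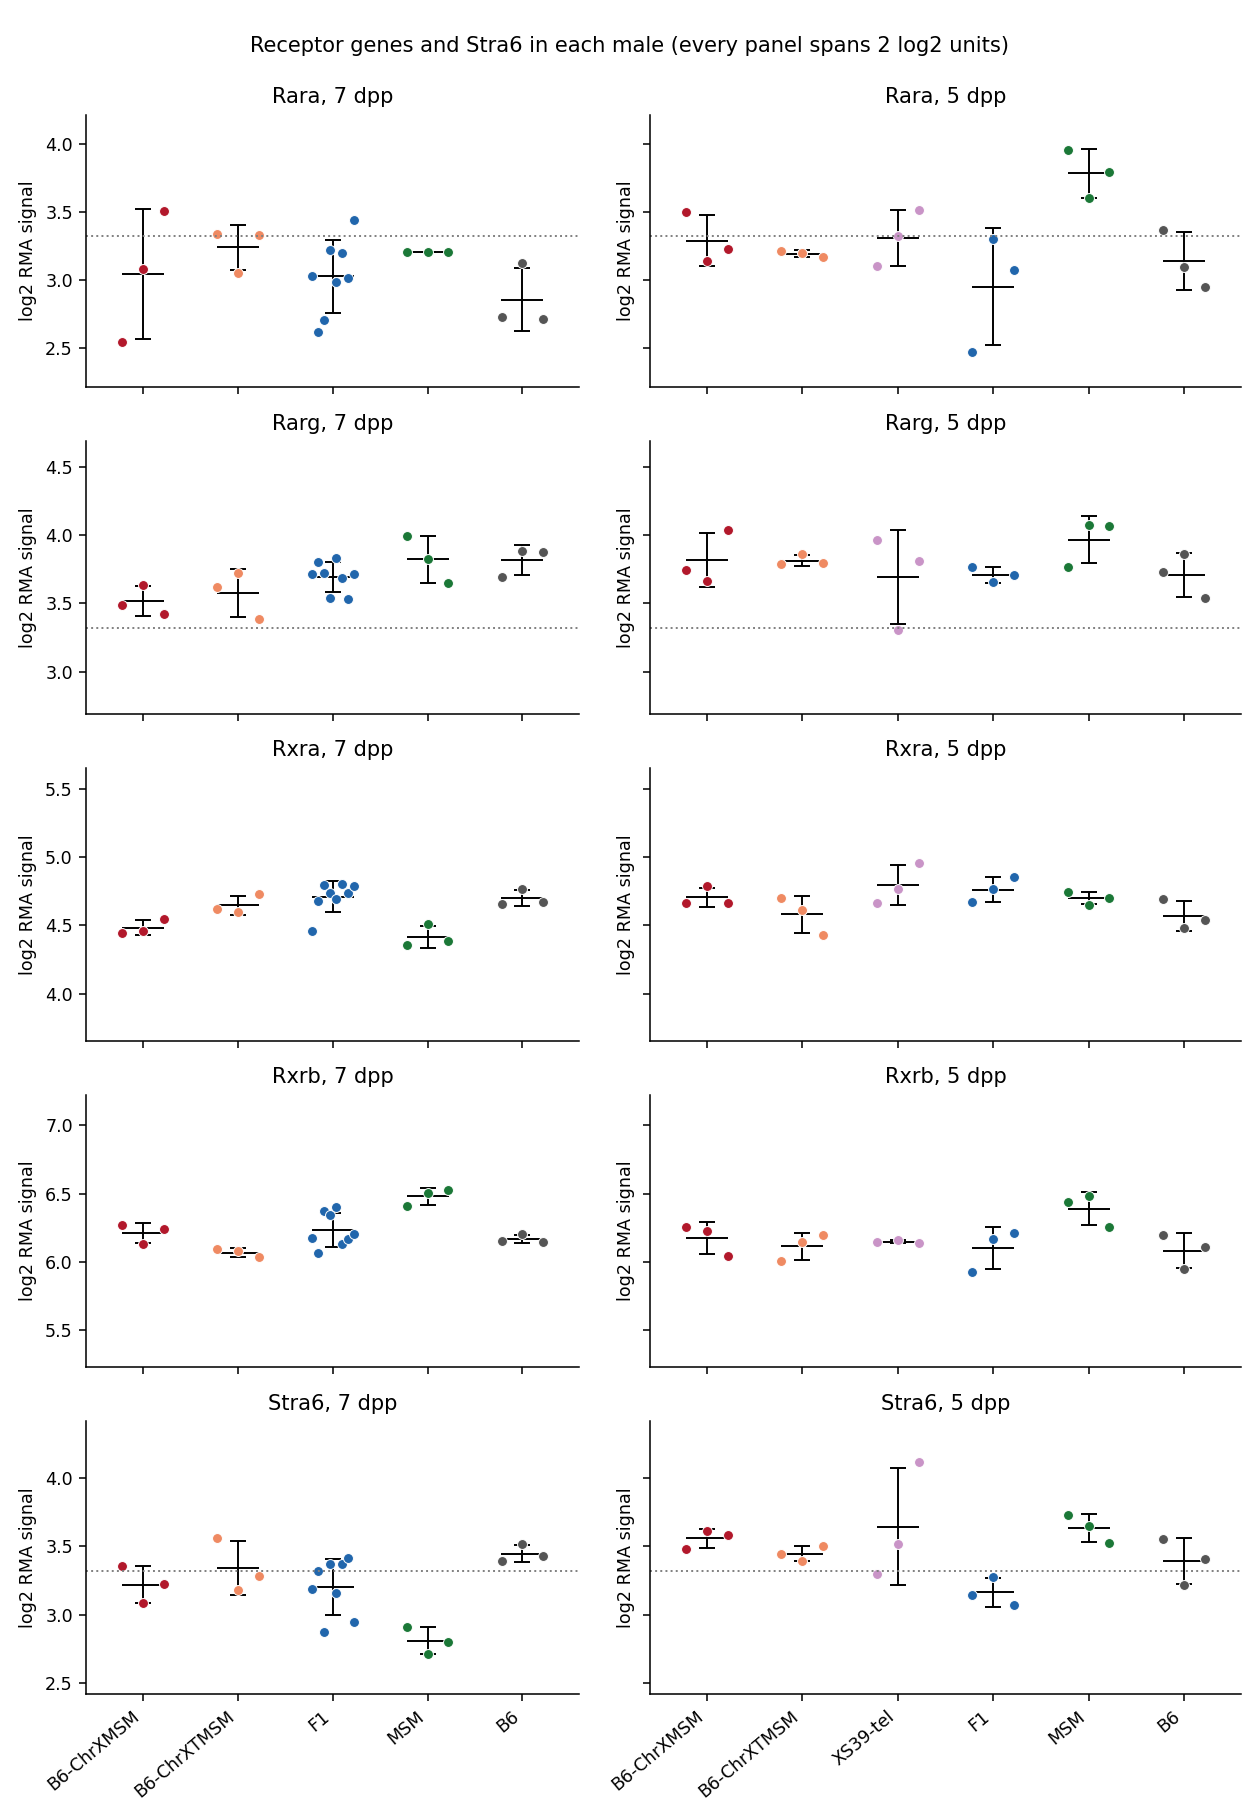
Log2 RMA signal of Rara, Rarg, Rxra, Rxrb and Stra6 at 7 dpp (left) and 5 dpp (right), with a point for each male, the group mean as a long bar and the SD as whiskers; every panel spans 2 log2 units and the dotted line is the filter at 3.32. MSM males lie above B6 in Rxrb at both ages and in Rara at 5 dpp, and B6-ChrXMSM and MSM males lie below B6 in Stra6 and Rxra at 7 dpp.

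At 5 dpp both carriers were called lower than in B6 in 1 strain, B6-ChrXMSM. In B6-ChrXMSM males Crabp1 had log2 signals of 1.497, 2.27 and 1.70, against 3.93, 3.99 and 4.17 in B6 males. Males 1 and 3 had the lowest Crabp1 signals of all 38 arrays, and the log2 fold change was -2.21 (SE 0.18, adjusted p = 0.00164 by limma). The B6-ChrXMSM mean of 1.82 fell below the filter, and Crabp1 was tested through the B6 mean of 4.03. A weak signal therefore sets how large this difference is. Rbp4 had 3.25, 3.74 and 3.08 in B6-ChrXMSM males and 4.72, 4.50 and 4.12 in B6 males. Its log2 fold change was -1.09 (SE 0.20, adjusted p = 0.0285 by limma). Both genes were called among 6 members tested, beside 1.68% of all probe sets. The call of Rbp4 was lost without B6-ChrXMSM male 1 (adjusted p = 0.0740) or male 3 (0.0779), and without B6 male 1 (0.0980) or male 2 (0.0988), by the same limma fit. Genes of the adipose tissue list varied in these arrays, with a mean log2 signal of 3.75 to 5.83 in B6-ChrXMSM males and 4.24 to 7.01 in B6 males, over the 5 of 8 matched genes that exceeded the filter. Among them 1 was called lower, and the part of fat in the Rbp4 result was not tested.

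In B6-ChrXTMSM, XS39-tel and F1 males of 5 dpp no member was called by limma. B6-ChrXTMSM males had Crabp1 signals of 3.07, 3.60 and 2.95, below those of all B6 males, at -0.82 on the log2 scale (adjusted p = 0.0820), and Rbp4 signals of 3.74, 3.88 and 3.54 with -0.73 (adjusted p = 0.0933). Here 2 of 6 members and 20.3% of all probe sets had an unadjusted p under 0.05, and 0.307% of all probe sets were called. XS39-tel males had Crabp1 signals of 2.93, 3.14 and 3.48, at -0.85 on the log2 scale (adjusted p = 0.0567). In XS39-tel 2 of 7 member probe sets and 18.3% of all probe sets had an unadjusted p under 0.05. Of all probe sets 0.65% were called. F1 males had Crabp1 signals of 3.17, 2.02 and 2.62, a log2 difference of -1.42 (adjusted p = 0.0797) and a standard error of 0.27. Against B6, 3 of 6 members and 16.5% of all probe sets had an unadjusted p under 0.05 in F1 males. Of all probe sets 0.54% were called. The Crabp1 signals of XS39-tel and F1 males lay below those of every B6 male too. The Crabp1 means of B6-ChrXTMSM, XS39-tel and F1 males, at 3.21, 3.18 and 2.605, fell below the filter. Crabp1 was tested there through B6 males, and weak signals set how large these differences are. Against B6-ChrXTMSM males of the same age, F1 males showed no member called, where 0.0483% of all probe sets were. At an unadjusted p under 0.05 were 1 of 5 members and 10.8% of all probe sets. B6-ChrXTMSM against B6-ChrXMSM males likewise gave no member called and none at an unadjusted p under 0.05. Of all probe sets 0.727% were called and 20.3% had such a p. Crabp1 could not be tested in these last 2 comparisons, since all 3 groups lay below the filter. Some of these calls turned on 1 male. Crabp1 was called in B6-ChrXTMSM without its male 2 (adjusted p = 0.0112 by limma), in XS39-tel without its male 3 (0.00875) and in F1 against B6 without F1 male 1 (0.0238). Rbp4 was called in B6-ChrXTMSM without B6 male 3 (0.0405). That male had the lowest adipose tissue list signal of the B6 males, at 4.24 against 7.01 and 6.37. The list lay at 3.86, 3.88 and 5.76 in B6-ChrXTMSM males, and the part of fat in this call was not tested.

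The means of F1 males of 7 dpp lay between those of B6-ChrXTMSM and B6 males in both carriers. Crabp1 ranged from 4.56 to 6.75 with a median of 5.44 over the 8 males. All 8 lay above every B6-ChrXTMSM male, 6 lay below the range of B6 males, 1 within it and 1 above it. Rbp4 ranged from 4.24 to 5.73 with a median of 4.88, again above every B6-ChrXTMSM male in all 8, and below the range of B6 in 7. Against B6-ChrXTMSM the log2 fold change of Crabp1 was 1.92 (SE 0.40, adjusted p = 0.0537 by limma). It was the highest of 16598 probe sets, yet it did not pass the test. Rbp4 differed by 1.07 (SE 0.25, adjusted p = 0.0620). Both missed the threshold narrowly, so that no member was called, where 0.325% of all probe sets were. At an unadjusted p under 0.05 were 2 of 6 members and 20.4% of all probe sets. Crabp1 and Rbp4 were both called in 1 fit over all groups of the age, with an adjusted p of 0.00451 and 0.00827. Both were also called where probe sets were averaged per gene, with 0.0340 and 0.0402. Crabp1 was called in 5 of 10 alternatives and Rbp4 in 3 of 9. With a B6-ChrXTMSM male left out neither was called, at an adjusted p of 0.0572 to 0.314 for Crabp1 and 0.101 to 0.325 for Rbp4. Against B6 the log2 fold changes were -0.81 for Crabp1 (adjusted p = 0.178) and -0.71 for Rbp4 (adjusted p = 0.0982). There too no member was called by limma, where 1.72% of all probe sets were. At an unadjusted p under 0.05 were 2 of 6 members and 26% of all probe sets.

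**Figure D3:**
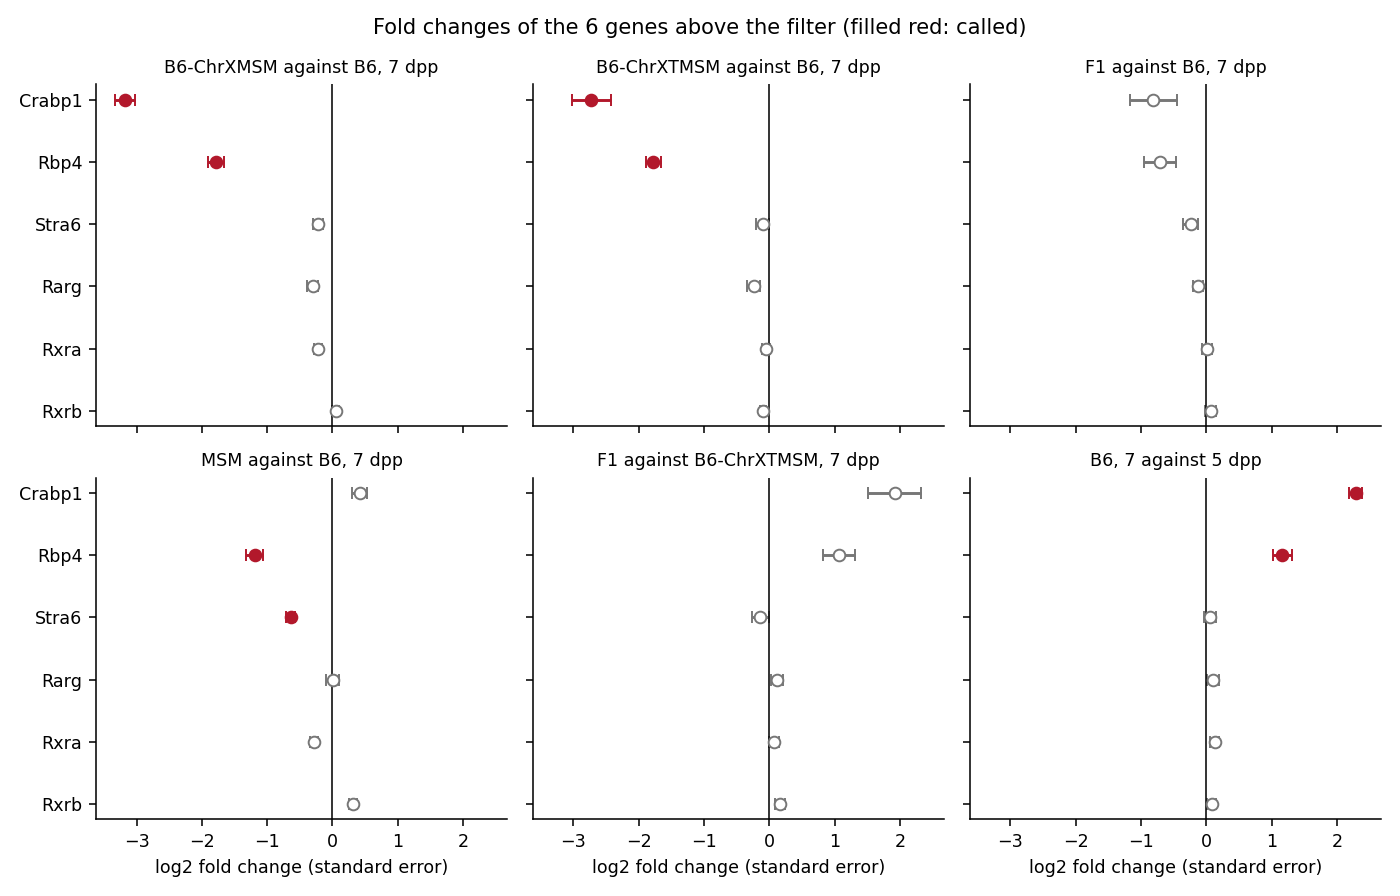
Log2 fold change (x axis, with its standard error) of the 6 genes tested, in 6 comparisons; filled red points passed an adjusted p under 0.05 and a 1.5-fold change, open grey points did not. Crabp1 and Rbp4 lie at -3.18 and -1.78 in B6-ChrXMSM against B6, at 1.92 and 1.07 in F1 against B6-ChrXTMSM without passing the test, and at 2.28 and 1.17 between the ages of B6.

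In Crabp1 the spread among the 8 F1 males followed the germ cell list. Males were ranked by the mean log2 signal of the germ cell list, which does not hold Crabp1, and the rank of every male in Crabp1 was the same. Pearson's r was 0.968 and Spearman's rho 1.00, each with an exact permutation p of 4.96e-05 (two-sided), the smallest that 8 males can give, and 0.00134 after adjustment over the 27 relations computed. Without the 2 males farthest from the median of the list, r was 0.992 over 6 males with an exact p of 0.00278. The germ cell list was chosen with earlier results of these data known. How many genes other than the members keep its order was not computed. The relation of Rbp4 to this list had r = 0.886 (exact permutation p = 0.00243, adjusted p = 0.0328) and rho = 0.905 (exact permutation p = 0.00456, adjusted p = 0.0616). Without those males r was 0.722 (unadjusted exact permutation p = 0.111). Crabp1 ran against the Sertoli cell list with r = -0.831 (exact permutation p = 0.00466, adjusted p = 0.0419), but rho was -0.667 (exact permutation p = 0.0831, adjusted p = 0.517) and r without the 2 males farthest from the median of that list was -0.629 (unadjusted exact permutation p = 0.139). The smallest exact p that 6 males can give is 0.00278, which Crabp1 with the germ cell list reached, at 0.0751 after adjustment over 27. The relations of Rbp4 to that list and of Crabp1 to the Sertoli cell list did not pass there even unadjusted. With so few males this cannot decide whether they depend on the males left out. With the adipose tissue list r was -0.139 for Crabp1 and -0.0217 for Rbp4, with exact permutation p of 0.752 and 0.968. None of the other 7 genes passed the adjusted threshold with any of the 3 lists.

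**Figure D4:**
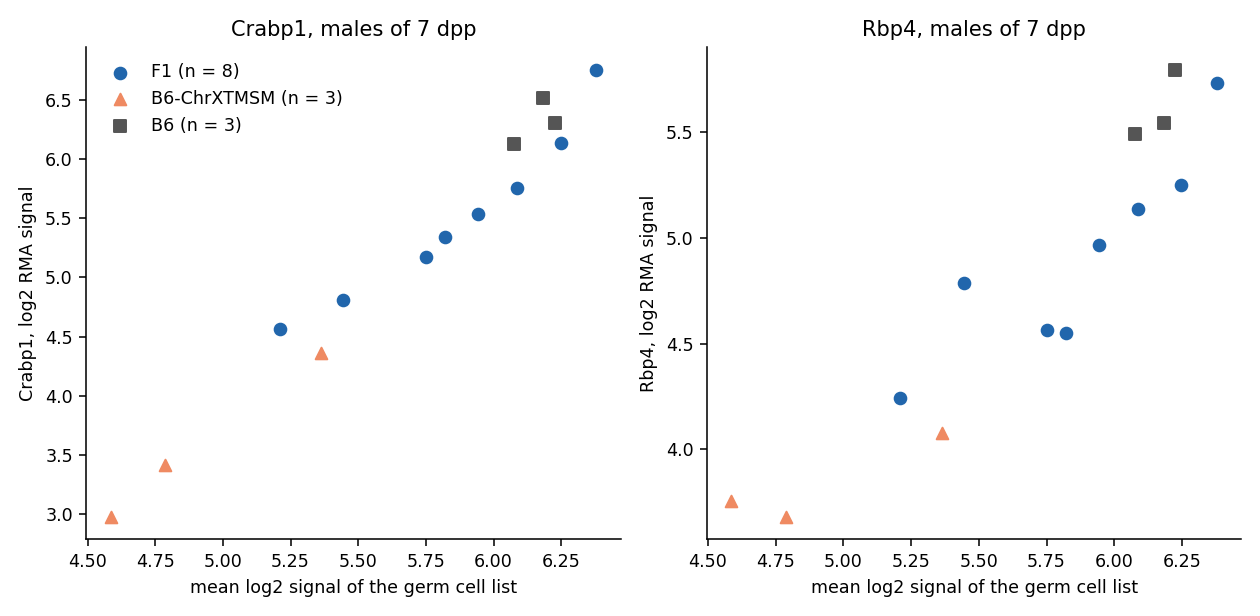
Log2 RMA signal of Crabp1 (left) and Rbp4 (right) against the mean log2 signal of the germ cell list, with a point for each male of 7 dpp in F1 (circles), B6-ChrXTMSM (triangles) and B6 (squares). The 8 F1 males keep the same order on both axes for Crabp1 (r = 0.968), and their list signals run from 5.21 to 6.38.

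Between the ages, both carriers rose in B6 testes. Crabp1 had 6.12, 6.52 and 6.30 at 7 dpp and 3.93, 3.99 and 4.17 at 5 dpp in B6 males. All males of 7 dpp lay above all males of 5 dpp, the log2 fold change was 2.28 (SE 0.11, adjusted p = 2.2e-05 by limma), and only 3 probe sets had a higher one. Rbp4 rose by 1.17 (SE 0.15, adjusted p = 0.000718). Of the 6 member probe sets tested 2 were called, where 8.33% of all probe sets were called. Beside Rbp4, the mean log2 signal of the adipose tissue list was 3.68 to 3.89 at 7 dpp and 4.24 to 7.01 at 5 dpp in B6 males, the opposite direction. In F1 males Crabp1 rose by 2.90 (SE 0.39, adjusted p = 0.00273), the highest log2 fold change of all probe sets, and Rbp4 by 1.03 (SE 0.27, adjusted p = 0.0195). These were the 2 called of 5 tested in F1, where 5.56% of all probe sets were called. The Crabp1 mean of F1 males of 5 dpp, 2.605, lay below the filter, so a weak signal sets how large its rise is. The Rbp4 call in F1 was lost without the F1 male 2 of 5 dpp (adjusted p = 0.122) or male 3 (0.0558).

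No rise passed the test in B6-ChrXTMSM males. There Crabp1 averaged 3.59 ± 0.71 at 7 dpp and 3.21 ± 0.35 at 5 dpp (SD, n = 3 each), a log2 fold change of 0.38 (adjusted p = 0.495 by limma). Rbp4 differed by 0.12 (adjusted p = 0.568). No member was called, where 0.84% of all probe sets were. An unadjusted p under 0.05 was found for 1 of 6 members and 28.2% of all probe sets. The difference between B6-ChrXTMSM and B6 in the change with age was tested as an interaction. It was -1.91 for Crabp1 (SE 0.40, adjusted p = 0.00765 by limma) and -1.05 for Rbp4 (SE 0.22, adjusted p = 0.00721). In one fit over all groups of both ages the call of Rbp4 was lost (adjusted p = 0.115). The 14 germ cell genes tested were all called lower in the same term, with a median of -1.10. Here 2 of 6 members were called, where 5.19% of all probe sets were called.

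In B6-ChrXMSM males Crabp1 averaged 3.14 ± 0.32 at 7 dpp and 1.82 ± 0.40 at 5 dpp (SD, n = 3 each). Both means lay below the filter, so this difference was not tested. Without the filter it was 1.32, with an adjusted p of 0.0297 by limma. No other member was called between the ages in this strain, where 2.48% of all probe sets were called. At an unadjusted p under 0.05 were 4 of 5 members tested and 27% of all probe sets. Against B6, the change with age differed by -0.96 for Crabp1 (adjusted p = 0.0727) and by -0.69 for Rbp4 (adjusted p = 0.148), and no member was called by limma. Crabp1 was called in this term without B6-ChrXMSM male 1 of 5 dpp (0.0382), and Rbp4 between the ages of B6-ChrXMSM without male 2 of 5 dpp (0.0281). In the interaction 5 of 6 members and 22% of all probe sets had an unadjusted p under 0.05. Of all probe sets 1.4% were called. For F1 males the corresponding differences from B6 were 0.62 for Crabp1 and -0.13 for Rbp4, with adjusted p of 0.779 and 0.941. No member was called or had an unadjusted p under 0.05 there. Of all probe sets 0.0117% were called and 6.57% had such a p.

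MSM males had their own profile. MSM alleles can carry mismatches to the probes, which are designed on the laboratory genome, and for autosomes other than chromosome 1 this was not assessed, so a difference between MSM and B6 in RNA cannot be told apart from one in hybridization. At 5 dpp Crabp1 had 5.53, 5.41 and 5.65 in MSM males and 3.93, 3.99 and 4.17 in B6 males, a log2 fold change of 1.501 (SE 0.09, adjusted p = 5.18e-06 by limma). Of 13 germ cell genes tested 7 were called higher in MSM and none lower. Rara had 3.95, 3.60 and 3.79 in MSM males, the one group in which it exceeded the filter, against 3.37, 3.10 and 2.95 in B6 males. Its log2 fold change was 0.64 (SE 0.13, adjusted p = 0.00247), and the call was lost for want of a 1.5-fold change without MSM male 1 (0.56) or B6 male 3 (0.55). Rara entered the test through MSM males alone, so it could only have been called higher in MSM. Crabp1 and Rara were the 2 called of 8 member probe sets, where 28.3% of all probe sets were called, so the share is close to that of all probe sets. Rbp4, at -0.55 (adjusted p = 0.0658), was called lower without MSM male 2 (0.00495) or B6 male 3 (0.0353). MSM male 2 had the highest adipose tissue list signal of its group, at 6.85 against 4.48 and 5.77. B6 male 3 had the lowest of its group, at 4.24 against 7.01 and 6.37. The part of fat in these calls was not tested.

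At 7 dpp Stra6 and Rbp4 were called lower in MSM males. Stra6 had 2.91, 2.71 and 2.80 in MSM males, against 3.40, 3.51 and 3.43 in B6 males, a log2 fold change of -0.64 (adjusted p = 0.000126 by limma). The MSM mean of 2.81 lay below the filter, so Stra6 was tested through B6 males alone and could only have been called lower. Rbp4 had 4.15, 4.62 and 4.50 in MSM males and 5.49, 5.55 and 5.80 in B6 males, a difference of -1.19 on the log2 scale (adjusted p = 0.000114). Thus MSM and the X substitution strains were both below B6 in Rbp4 at this age, whereas Crabp1 had a log2 fold change of 0.41 in MSM against B6 (adjusted p = 0.0120), under the 1.5-fold change. Rxrb (0.32, adjusted p = 0.00220) and Rxra (-0.28, adjusted p = 0.00654) also passed the adjusted p without reaching 1.5-fold. The 2 calls stood among 6 tested, where 17.3% of all probe sets were called. An unadjusted p under 0.05 by limma was found for 5 of the 6 and for 63.1% of all probe sets. From 7 against 5 dpp within MSM, where the alleles are the same, Crabp1 rose by 1.20 (SE 0.10, adjusted p = 5.34e-05) and Stra6 fell by 0.83 (SE 0.09, adjusted p = 0.000143). Rara differed by -0.58 with an adjusted p of 0.0013, just short of 1.5-fold, which it reached without MSM male 2 of 5 dpp (-0.67). It entered this test through MSM males of 5 dpp alone, so only a fall could have been called. Rbp4 differed by 0.53 (adjusted p = 0.0650) and was called without MSM male 1 of 7 dpp (0.0471) or male 2 of 5 dpp (0.00303). The latter had the highest adipose tissue list signal of the MSM males of 5 dpp, at 6.85. Among 8 member probe sets 2 were called between the ages of MSM, where 14.7% of all probe sets were called.

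The rest of the retinoid pathway was read from lists. Of the other binding and uptake genes, 8 of 9 were matched and 1 exceeded the filter, Fabp5, which can carry retinoic acid to PPAR receptors. Its log2 fold change at 7 dpp was 0.06 in B6-ChrXMSM and 0.05 in B6-ChrXTMSM males against B6. Among 10 measured genes of retinoic acid synthesis and breakdown none was called in B6-ChrXMSM males of 7 dpp, and in B6-ChrXTMSM males 1 was called, Adh1, an alcohol dehydrogenase that can oxidize retinol, which rose by 0.62 (adjusted p = 0.000930 by limma). None of 14 measured receptor partners and cofactors was called in either strain, with medians of 0.14 in both. Among the 8 measured retinoic acid targets 3 were called lower in each strain and none higher. Stra8, the factor that retinoic acid induces at meiotic entry, had log2 fold changes of -2.24 (adjusted p = 2.64e-05) in B6-ChrXMSM and -2.25 (adjusted p = 0.000539) in B6-ChrXTMSM males. Kit, the receptor of differentiating spermatogonia, had -1.40 (adjusted p = 8.79e-06) and -1.15 (adjusted p = 0.000615), and Sycp3, a protein of the meiotic chromosome axis, had -1.75 (adjusted p = 5.08e-05) and -1.60 (adjusted p = 0.00168) in the same strains. All 3 are also transcripts of germ cells. The median over the 8 targets was 0.06 in B6-ChrXMSM and 0.04 in B6-ChrXTMSM males, beside 0.01 and 0.02 over all probe sets. In F1 males of 7 dpp Stra8 was higher than in B6-ChrXTMSM males by 1.47 (adjusted p = 0.0496), and no other listed pathway gene was called there.

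Genes of the germ cell list were called in several of the same comparisons. At 7 dpp 13 of 14 were called lower than in B6 both in B6-ChrXMSM (median -1.38) and in B6-ChrXTMSM males (median -1.29), and in B6 13 of 14 were called higher at 7 than at 5 dpp (median 1.12). At 5 dpp 11 of 13 were called lower in B6-ChrXMSM males (median -1.44) and none of 13 in B6-ChrXTMSM males (median -0.16). In MSM against B6 at 7 dpp, where Rbp4 was called lower, 4 of 14 were called higher and 0 lower (median 0.35). Of 9 genes of differentiating spermatogonia 8 were called lower and 1 higher in each X substitution strain at 7 dpp. The 1 called higher, named after its values were seen, was Ccnd2, a cyclin of the cell cycle that other cells also use. Of 9 genes of undifferentiated spermatogonia 3 were called lower and 1 higher in B6-ChrXMSM males (median 0.04), and 3 lower and 0 higher in B6-ChrXTMSM males (median 0.12). The 3 were Zbtb16, Lin28a and Pou3f1 in both strains and the 1 called higher was Lhx1, again named after their values were seen. The 19 Sertoli cell genes had medians of 0.16 in B6-ChrXMSM and -0.01 in B6-ChrXTMSM males of 7 dpp, with 3 called higher and 1 lower in each. How far the number of germ cells bears on Crabp1 and Rbp4 was not tested. Over all 38 arrays, which share the strain and age groups, the genes most like Crabp1 among 10642 by Pearson's r were Tdrd9 (0.983), Tex12 (0.979), Ddx25 (0.975), Zfp597 (0.972) and Sohlh1 (0.971). Tdrd9 and Ddx25 are on the germ cell list. Those most like Rbp4 were Eif1b (0.906), Hmox2 (0.900), Syce3 (0.889), Psme3 (0.877) and Arhgap44 (0.875). The coefficient between Crabp1 and Rbp4 was 0.767. This placed Rbp4 at rank 1012 among the genes most like Crabp1, and Crabp1 at rank 172 among those most like Rbp4.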

How the data were processed

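Total RNA of whole testes, of high integrity by the study's methods, was amplified from 3' ends and hybridized to Affymetrix mouse genome arrays, 1 male each. The log2 values were made by the authors with RMA in GeneSpring GX (version not given in the sources used here) and deposited as 1 table. RMA corrects background, quantile-normalizes the arrays and summarises perfect-match probes, so changes of weak probe sets are compressed and a shift shared by most transcripts is removed. Nothing was normalized again for the main results.

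Of 45101 probe sets 34958 had 1 gene, and 34724 of these could be placed on autosomes or on the X. Those listed as polymorphic in the study were left out (258 on the X chromosome, 723 on chromosome 1 where F1 males were compared). That list covers no other chromosome. Groups were compared in pairs in R 4.3.3 by the moderated test of limma 3.58.1 (lmFit, eBayes, two-sided, Benjamini-Hochberg over all probe sets tested), 21 comparisons in all, of which 13 between strains, 5 between ages and 3 interactions. A probe set entered a test where a group compared had a mean signal over 10 before the log. The fitting code was tested on simulated data. Where a gene had several probe sets, the one of highest mean was named. Other genes of the pathway were named where called in B6-ChrXMSM or B6-ChrXTMSM against B6 at 7 dpp, and the 5 most alike genes were given for members called in at least 3 strain comparisons. Males were separate animals, and F1 males of 7 dpp were used as 1 group. The members and lists were chosen with earlier results of these data known. Relations over F1 males used exact permutation tests.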

Additional observations from a re-analysis of the deposited data

Results flagged for a closer look

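The change of Crabp1 with age differed between B6-ChrXTMSM and B6 males by -1.91 on the log2 scale (7 minus 5 dpp, adjusted p = 0.00765 by limma), and that of Rbp4 by -1.05 (adjusted p = 0.00721). In B6-ChrXTMSM males the changes were 0.38 and 0.12, and in B6 males 2.28 and 1.17.

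Among the 8 F1 males of 7 dpp, the lowest male in Rxra lay at 4.46 where the others reached from 4.68 to 4.80, a gap of 0.646 of the whole range against a critical value of 0.526. The lowest male in Crabp2 lay at 1.08 with the highest at 1.38, a gap of 0.614 of the range, at signals below the filter. Chance flags about 1 in 20 groups, and 9 were examined. In Crabp1 and Rbp4 the corresponding ratios were 0.283 and 0.324, below the critical value.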

How the results depend on the processing

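Crabp1 kept its call in every alternative and with every male left out in B6-ChrXMSM against B6 at both ages, in B6-ChrXTMSM against B6 at 7 dpp, in MSM against B6 at 5 dpp, between the ages of B6, MSM and F1, and in the age difference of B6-ChrXTMSM from B6, wherever it was tested (of F1 only the 3 males of 5 dpp were left out in turn). Rbp4 did so in B6-ChrXMSM, B6-ChrXTMSM and MSM against B6 at 7 dpp and between the ages of B6. Counts of members called moved elsewhere, and they are given without the share of all probe sets called under each setting. In B6-ChrXMSM against B6 at 5 dpp 2 became 1 without the filter and 0 with a filter at 30, and 1 to 2 with a male left out. In B6-ChrXTMSM at 5 dpp none became 2 with a trended, robust fit, in XS39-tel 1 with that fit, and in F1 against B6 1 in a single fit over all groups, at 5 and at 7 dpp alike. With a male left out these 5 dpp counts reached 0 to 1. In F1 against B6-ChrXTMSM at 7 dpp none became 2 in a single fit, Crabp1 and Rbp4 were both called with probe sets averaged per gene, and 1 was called after a further quantile normalization, with a trended, robust fit or with all probe sets kept. In MSM against B6, a filter at 30 left 1 at either age, and dropping the 1.5-fold threshold gave 4 at 5 dpp and 5 at 7 dpp. In the main fits 69.8% of all probe sets at 5 dpp and 63.1% at 7 dpp had an unadjusted p under 0.05 by limma. With a male left out the count was 1 to 3 at 5 dpp. Between the ages of MSM a filter at 30 gave 1, dropping the 1.5-fold threshold 5, and a male left out 2 to 4. There 57.4% of all probe sets had an unadjusted p under 0.05 in the main fit. Between the ages of B6-ChrXMSM 1 was called without the filter, 1 without the 1.5-fold threshold and 0 to 1 with a male left out. The main fit there had 27% of all probe sets at an unadjusted p under 0.05. Between the ages of F1 the filter at 30 gave 1, and a male left out 1 to 2. In B6-ChrXMSM against B6 at 7 dpp, dropping the 1.5-fold threshold gave 5 of 6 members. The main fit there had 49.5% of all probe sets at an unadjusted p under 0.05. In the age difference from B6, B6-ChrXMSM gave 1 with a filter at 30 or a trended, robust fit and 0 to 1 with a male left out, and B6-ChrXTMSM gave 1 in a single fit, where Rbp4 had an adjusted p of 0.115. Fewer probe sets enter with a filter at 30, and the cause of the other moves was not tested. Values near 0 changed sign. For Rbp4 in B6-ChrXTMSM against B6-ChrXMSM at 7 dpp these were -0.0065 with array medians subtracted, -0.00606 after a further quantile normalization, and -0.12 to 0.087 with a male left out. Between the ages of B6-ChrXTMSM Rbp4 ran from -0.00301 to 0.196 with a male left out, and in the age difference of F1 from B6 from -0.373 to 0.029. In 0 comparisons did every pair of males of the same number deviate together with a correlation over 0.1. The mean correlation of such pairs ran from -0.19 (between the ages of B6-ChrXMSM) to 0.154 (between the ages of F1). This strict rule cannot show that no comparison held paired males. With the replicate number as a block 1 member was called in F1 against B6-ChrXTMSM at 7 dpp (Rbp4, 1.22, adjusted p = 0.0237, only 3 F1 males sharing a number), the Rbp4 age difference of F1 was 0.022, and no other count of members called moved. Of the 3 relations over F1 males that passed, 0 passed after adjustment over 27 without the 2 farthest males. The lowest adjusted exact permutation p there was 0.0751, for Crabp1 with the germ cell list, at the smallest unadjusted p that 6 males can give. Signals near the filter limit the size of changes in Crabp1, Stra6 and Rara.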
